A study of Mus musculus with 12 samples.

Results

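The interleukin 1 system of liver and spleen neutrophils was described through 10 genes, picked by symbol from the 48709 genes of the count table. They were the ligands Il1a and Il1b, the receptor antagonist Il1rn, the signalling receptors Il1r1 and Il1rap, the decoy receptor Il1r2, the cytokine-processing genes Casp1 and Nlrp3, and the opposite-strand genes Il1bos and Gm16894. These genes were chosen with their values in all 3 comparisons already known, so their levels and fold changes are given as a description and without a test. Of the 10, 9 passed the filter on low counts and were fitted, and Il1r1 did not. Neutrophils had been sorted as CD45+ CD11b+ Ly6Ghi Ly6Cint cells from male C57BL/6N mice aged 8 to 10 weeks, after enrichment on anti-Ly6G beads. The 3 spleen libraries came from untreated mice, and the 4 liver libraries at 24 h and 5 at 72 h came from mice given a single intraperitoneal injection of 1 mL/kg CCl4, a hepatotoxin, in corn oil. Livers were digested with enzymes and their leukocytes purified on a Percoll gradient, while spleens were only dissociated mechanically and filtered. No liver library of untreated mice was analysed here. Organ, injury and the way cells were isolated thus changed together in each comparison with spleen and cannot be told apart.

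Interleukin 1 alpha and beta are cytokines that start and amplify inflammation, and neutrophils are a known source of interleukin 1 beta in injured tissue. Both ligands bind IL1R1, which signals together with the accessory chain IL1RAP through MyD88 and IRAK kinases. IL1RN competes for that receptor without signalling, and IL1R2 is a decoy that binds ligand and has no signalling domain. Interleukin 1 beta is made as a precursor that caspase 1 cleaves inside inflammasomes such as the one built on NLRP3.

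The libraries held between 1267089 and 3017403 reads on genes, which were 2.71 to 3.18% of the uniquely aligned reads. The kit marks strand, but the strand setting of the read counter is not given in the sources used here, and all 20 genes with the most reads shared exon bases with an opposite-strand gene (39.8% of the 12488 genes tested did). Of the uniquely aligned reads, 96.8 to 97.3% were on no gene. Whether the counts of any gene, with or without an opposite-strand neighbour, hold reads of its own strand was not tested, reads of neighbours on opposite strands cannot be told apart, and each level below is that of the annotated gene as deposited. Of the 10 neutrophil markers, 9 were detected in every group, and Camp, a marker of immature granulocytes, had no read in the 4 libraries of 24 h. Ranked by reads among all genes, Ly6g, which encodes the antigen sorted on, was between 2313 and 10207 across the libraries, S100a8 between 97 and 1761 and Mmp8 between 459 and 3092, while Csf3r was between 199 and 593. The summed level of these markers ran from 1909 to 7525 normalized CPM (counts scaled to library size, with TMM factors) in spleen, where replicate 3 was the lowest, from 1167 to 2773 at 24 h and from 2118 to 2802 at 72 h. Replicates 2 and 3 of the 72 h group stood apart, with 1.91 and 1.98% of reads unaligned against 49.6 to 50.7% in the other libraries, and with the highest summed hepatocyte marker counts (23 and 64 reads, against 0 to 4 elsewhere). Summed monocyte markers were at 9.97 to 40.8 normalized CPM in spleen and 2.83 to 11.4 in liver. Summed eosinophil markers were at 14.2 to 31.3 at 72 h and 6.36 to 16.8 in the other groups. Of the lists outside neutrophils, macrophage markers had the highest sums. They were at 90.6 to 154 in spleen, 134 to 204 at 24 h and 122 to 185 at 72 h. Summed B cell markers were at 44.2 to 54.0 in spleen, 25.5 to 61.2 at 24 h and 24.0 to 45.2 at 72 h. Summed endothelial markers were at 25.5 to 71.7, 32.8 to 59.1 and 41.5 to 66.7 in the same order. The part of these cell types in the results was not tested. In these bulk libraries, fewer cells of a type and less RNA per cell cannot be told apart.

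Some of the genes lie close to each other. On chromosome 2 of GRCm38 (GENCODE M21), Il1b (ENSMUSG00000027398) is annotated at chr2:129364570-129371139 and Il1a (ENSMUSG00000027399) at chr2:129299610-129309972, both on the minus strand and 54597 bases apart. Il1rn (ENSMUSG00000026981) is at chr2:24336853-24351494 on the plus strand. Il1r2 (ENSMUSG00000026073, chr1:40074079-40125231) and Il1r1 (ENSMUSG00000026072, chr1:40225080-40317257) follow each other on the plus strand of chromosome 1. Il1rap (ENSMUSG00000022514) is at chr16:26581704-26730117, Casp1 (ENSMUSG00000025888) at chr9:5298517-5307265 and Nlrp3 (ENSMUSG00000032691) at chr11:59541568-59566956, all on the plus strand.

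Il1bos (ENSMUSG00000074805) runs on the plus strand at chr2:129369897-129375748, opposite to Il1b. It starts 1242 bases inside Il1b, and 2955 of its 2980 exon bases lie beyond the start of Il1b, from 1655 to 4609 bases upstream of it. Only its first exon of 25 bases overlaps annotated Il1b exons, in a part that other Il1b isoforms splice out. That exon (chr2:129369897-129369921, plus strand of GRCm38, from the transcript sequences of the annotation) is shown because it is all the exon sequence that the genes share.
Il1bos first exon: agtctagaagcagattctgggccag

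Gm16894 (ENSMUSG00000097899) runs on the minus strand at chr1:40076228-40085851 and has 4 exons of 842 bases in all. All of them lie within the annotated Il1r2 gene, but none overlaps an Il1r2 exon. The RefSeq starts of Gm16894 and Il1r2 are 242 bases apart and point away from each other. Their promoter windows, taken from 250 bases before to 50 bases after each start (RefSeq, GRCm38.p6), therefore share 259 bases. The shared stretch, chr1:40085843-40086101, is shown on the plus strand, in the direction of Il1r2, because the genes start near its ends.
Il1r2 and Gm16894 shared window: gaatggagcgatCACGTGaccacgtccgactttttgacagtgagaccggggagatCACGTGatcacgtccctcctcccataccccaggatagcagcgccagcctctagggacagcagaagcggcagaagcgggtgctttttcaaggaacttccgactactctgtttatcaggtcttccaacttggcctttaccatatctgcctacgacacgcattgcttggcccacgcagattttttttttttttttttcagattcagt

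Capitals mark the E-box CACGTG, which occurs at 2 places in the stretch, at bases -238 to -233 and -195 to -190 from the Il1r2 start. This motif was added after the stretch had been read, and 7.15% of the 32851 promoter windows of this length hold it. None of the motifs searched before it lay in the stretch: the TATA box (TATAAA), AP-1 (TGANTCA), C/EBP (TTGCNNAA), CRE (TGACGTCA) and the NF-kB consensus, each on both strands. The AP-1, CRE and E-box motifs read the same on both strands.

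**Figure D1:**
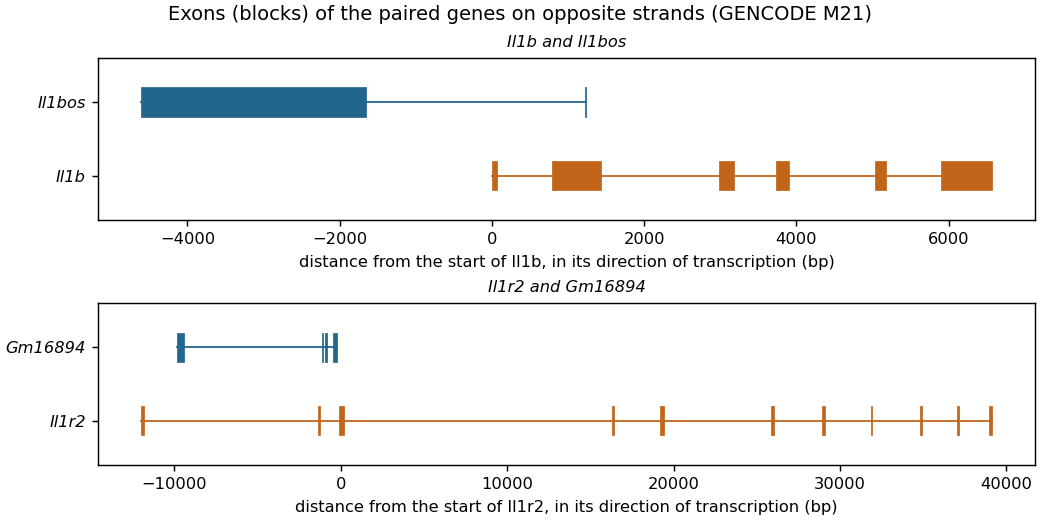
Exons (blocks) and introns (lines) of Il1b with Il1bos and of Il1r2 with Gm16894, against the distance in bases from the RefSeq start of the sense gene, with its direction of transcription to the right. The long exon of Il1bos lies 1655 to 4609 bases upstream of Il1b, and all exons of Gm16894 lie upstream of the main Il1r2 start.

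The promoter windows of Il1b, Il1a and the most upstream RefSeq start of Il1rn are shown because these are the ligands and the antagonist. Capitals mark the motifs found. They cover chr2:129371090-129371389 and chr2:129309923-129310222 on the minus strand, and chr2:24336610-24336909 on the plus strand.
Il1b promoter: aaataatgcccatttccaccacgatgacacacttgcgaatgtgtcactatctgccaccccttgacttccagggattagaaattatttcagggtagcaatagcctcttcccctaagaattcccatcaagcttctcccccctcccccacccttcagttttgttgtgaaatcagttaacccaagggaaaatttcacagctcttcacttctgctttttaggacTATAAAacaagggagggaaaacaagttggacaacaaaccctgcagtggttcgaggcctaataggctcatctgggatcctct
Il1a promoter: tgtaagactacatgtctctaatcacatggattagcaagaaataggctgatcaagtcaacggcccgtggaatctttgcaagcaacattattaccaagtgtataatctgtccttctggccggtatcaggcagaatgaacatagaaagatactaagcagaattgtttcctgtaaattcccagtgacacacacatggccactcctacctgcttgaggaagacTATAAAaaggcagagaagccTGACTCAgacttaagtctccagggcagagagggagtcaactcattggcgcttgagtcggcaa
Il1rn promoter: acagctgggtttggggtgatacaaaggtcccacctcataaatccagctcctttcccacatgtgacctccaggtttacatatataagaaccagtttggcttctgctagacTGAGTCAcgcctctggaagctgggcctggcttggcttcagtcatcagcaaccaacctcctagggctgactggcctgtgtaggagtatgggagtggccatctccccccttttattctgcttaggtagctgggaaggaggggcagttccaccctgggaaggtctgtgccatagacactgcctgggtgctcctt

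Il1b and Il1a each had TATAAA at nearly the same distance, at bases -31 to -26 and -32 to -27 from the start, and 13.6% of all windows hold it. The AP-1 motif stood at bases -12 to -6 in Il1a and at -141 to -135 in Il1rn, and 7.81% of windows hold it. All 10 genes had at least 1 RefSeq window, 14 in all.

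Interleukin 1 beta was the ligand with more reads and the one that differed between the liver time points. Il1b was at 152, 177 and 134 normalized CPM in spleen. It was at 142, 175, 233 and 279 normalized CPM at 24 h. At 72 h it was at 559, 686, 1273, 406 and 467 normalized CPM. Every 72 h library lay above every other library, while the 24 h and spleen libraries overlapped. The mean level was 154 ± 21.6 (SD, n = 3) in spleen, 207 ± 60.8 (n = 4) at 24 h and 678 ± 349 (n = 5) at 72 h. The fitted log2 fold change was 2.14 (SE 0.33) from spleen to 72 h, 0.43 (SE 0.32) from spleen to 24 h and 1.71 (SE 0.29) from 24 h to 72 h. Replicate 3 of 72 h was the highest, and without replicates 2 and 3, the libraries with the hepatocyte marker reads, the 72 h values were 1.63 against spleen and 1.21 against 24 h. The hepatocyte marker level moved with Il1b in these libraries, and its part in the result was not tested.

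Il1a, which encodes a ligand that is active without caspase 1 cleavage, was lower than Il1b in all 12 libraries, also per kb of exon. It was at 15.3, 10.2 and 15.1 normalized CPM in spleen. It was at 37.8, 46.2, 11.3 and 24.1 normalized CPM at 24 h. It was at 13.6, 20.7, 26.6, 13.2 and 7.79 normalized CPM at 72 h. The groups overlapped in every comparison, and the 24 h libraries differed widely among themselves (counts of 60, 77, 16 and 33). The log2 fold change was 1.15 (SE 0.45) at 24 h and 0.31 (SE 0.42) at 72 h against spleen. Without replicates 2 and 3 of 72 h, the value at 72 h was -0.22, and that between the times went from -0.84 to -1.37.

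The antagonist Il1rn was higher in liver than in spleen at both times. Its spleen libraries were tightly grouped, at 34.3, 35.5 and 36.0 normalized CPM. At 24 h it was at 95.2, 113, 117 and 121 normalized CPM. At 72 h it was at 166, 166, 147, 52.1 and 66.2 normalized CPM. All 9 liver libraries lay above the 3 of spleen, and replicates 4 and 5 of 72 h were the lowest of the liver. The log2 fold change was 1.66 (SE 0.35) at 24 h and 1.76 (SE 0.34) at 72 h, and 0.11 (SE 0.29) between the times. Without replicates 2 and 3 of 72 h, it was 1.43 at 72 h and -0.23 between the times.

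The decoy receptor Il1r2 was at 29.7, 31.5 and 31.5 normalized CPM in spleen. It was at 80.7, 106, 53.7 and 55.4 normalized CPM at 24 h. At 72 h it was at 66.1, 92.6, 142, 31.3 and 35.0 normalized CPM. The 24 h libraries did not overlap with spleen, whereas replicate 4 of 72 h lay within the spleen range. The log2 fold change against spleen was 1.26 at both times (SE 0.41 at 24 h and 0.40 at 72 h). Without replicates 2 and 3 of 72 h, it was 0.52 at 72 h and the difference between the times went from 0.00 to -0.74.

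The signalling receptor chains gave a different picture. Il1r1 had no read in 11 libraries and 1 read in replicate 1 of 72 h, where a count of 0 allows up to 3 reads, or 0.929 to 2.19 normalized CPM across the libraries. These are the reads counted for the annotated gene, under the same unstated strand setting. Il1rap, the accessory chain, was at 29.7, 30.1 and 26.7 normalized CPM in spleen. It was at 73.8, 59.4, 26.2 and 31.4 normalized CPM at 24 h. It was at 28.7, 33.2, 19.2, 20.8 and 56.5 normalized CPM at 72 h. Both liver groups overlapped with spleen, and the log2 fold changes were 0.73 (SE 0.39) and 0.13 (SE 0.37).

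Of the processing genes, Nlrp3, the sensor of the inflammasome, was at 22.7, 20.7 and 30.9 normalized CPM in spleen. It was at 24.0, 19.8, 16.3 and 40.9 normalized CPM at 24 h. The 72 h values were 49.9, 60.5, 67.5, 31.3 and 41.5 normalized CPM. Every 72 h library lay above every spleen library, by 1.02 (SE 0.33) on the log2 scale on average. The lowest of 72 h was close to the highest of spleen, and without replicates 2 and 3 of 72 h the difference was 0.72. The difference of 24 h from spleen was 0.02 (SE 0.35) and changed sign in 5 of 21 alternative settings. Casp1, which encodes the protease that cleaves the interleukin 1 beta precursor, had between 6 and 31 reads per library and overlapped between all groups, with means of 8.23 ± 3.64 (SD, n = 3) normalized CPM in spleen, 4.85 ± 1.17 (n = 4) at 24 h and 7.54 ± 2.93 (n = 5) at 72 h.

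**Figure D2:**
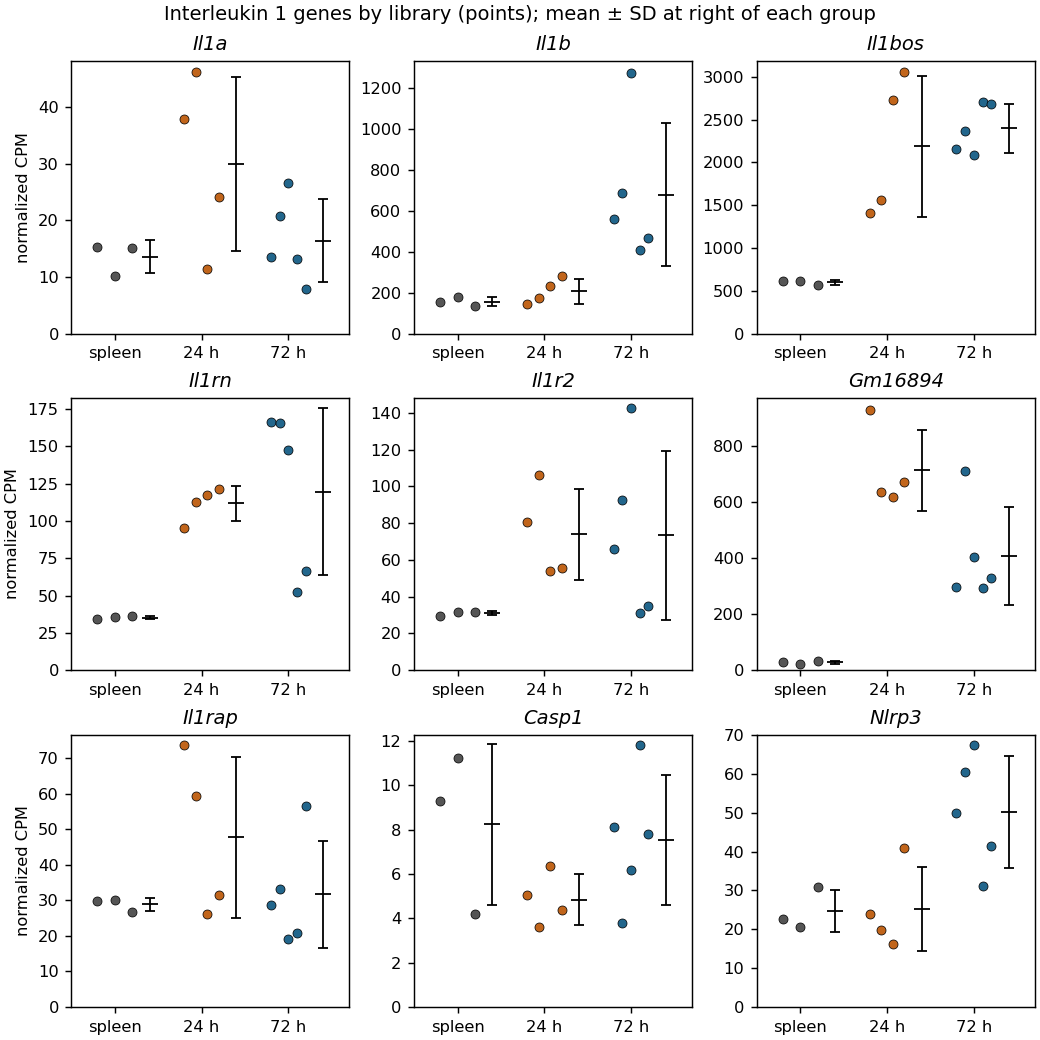
Normalized CPM of 9 interleukin 1 genes in each library (points) of spleen, 24 h liver and 72 h liver, with the mean and SD of each group as a bar at its right; each panel has its own linear axis from 0. Il1b is highest in all 5 libraries of 72 h, and Il1rn, Il1bos and Gm16894 are above spleen in all 9 liver libraries.

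The opposite-strand genes had more reads than the genes they face, except Gm16894 in spleen replicates 1 and 2. Il1bos was at 617, 610 and 565 normalized CPM in spleen. It was at 1412, 1555, 2726 and 3059 normalized CPM at 24 h. The 72 h values were 2151, 2365, 2090, 2706 and 2684 normalized CPM. All 9 liver libraries lay above spleen, and the liver groups overlapped. The log2 fold change was 1.87 (SE 0.25) at 24 h, 2.01 (SE 0.25) at 72 h and 0.13 (SE 0.21) between the times.

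Gm16894 had the largest difference from spleen among the 9 genes. It was at 29.2, 23.9 and 34.4 normalized CPM in spleen. It was at 926, 636, 617 and 670 normalized CPM at 24 h. The 72 h values were 298, 711, 404, 293 and 329 normalized CPM. The lowest liver library was thus still over the highest of spleen, and only replicate 2 of 72 h reached the 24 h range. The log2 fold change was 4.60 (SE 0.34) at 24 h, 3.80 (SE 0.32) at 72 h and -0.81 (SE 0.24) between the times.

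Read as pairs, the genes of each locus did not keep a fixed ratio. There were 3.45 to 4.22 Il1bos reads for each Il1b read in spleen. The ratio was 8.91 to 11.7 at 24 h and 1.64 to 6.66 at 72 h. The 24 h libraries thus lay above all others, and the 72 h libraries spanned the spleen range. The mean log2 ratio was 1.96 ± 0.15 (SD, n = 3) in spleen, 3.36 ± 0.17 (n = 4) at 24 h and 1.94 ± 0.79 (n = 5) at 72 h. From 24 h to 72 h the Il1b level was higher while that of Il1bos changed little.

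The second pair moved otherwise. There were 0.759 to 1.09 Gm16894 reads for each Il1r2 read in spleen. The ratio was 5.99 to 12.1 at 24 h and 2.84 to 9.39 at 72 h. Both liver groups lay above spleen and overlapped each other, with a mean log2 ratio of 3.30 ± 0.48 (SD, n = 4) at 24 h and 2.61 ± 0.75 (n = 5) at 72 h against -0.10 ± 0.27 (n = 3) in spleen. In replicates 4 and 5 of 72 h, Il1r2 was near its spleen level while Gm16894 was far above its highest spleen value.

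Exons of 2 other members overlap exons of a gene on the opposite strand, and those neighbours were tested since they are no members. Gm14023 (chr2:129297370-129307826, plus strand) shares 222 exon bases with Il1a. It had 2, 6 and 4 reads in spleen, or 0.928, 2.17 and 1.29 normalized CPM. It was at 51.7, 36.0, 113 and 230 normalized CPM at 24 h. It was at 87.3, 168, 262, 13.9 and 38.9 normalized CPM at 72 h. All liver libraries lay above spleen, with a log2 fold change of 6.12 (SE 0.93; edgeR quasi-likelihood test, adjusted p = 0.00021) at 24 h and 6.22 (SE 0.92; edgeR, adjusted p = 0.000164) at 72 h. The difference between the times was 0.10 (SE 0.55; edgeR, adjusted p = 0.942). At 24 h its log2 fold change was 5.43 without replicate 4 of that group. Without replicates 2 and 3 of 72 h, which had the most hepatocyte marker reads, it was 4.93 at 72 h against spleen and -1.18 between the times. Gm14023 had 0.0606 to 0.214 reads for each Il1a read in spleen, 0.779 to 10 at 24 h and 1.05 to 9.84 at 72 h.

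Gm20319 (chr16:26714446-26755502, minus strand) shares 552 exon bases with Il1rap. It was at 584, 683 and 758 normalized CPM in spleen. It was at 6196, 4163, 2185 and 3157 normalized CPM at 24 h. The 72 h values were 896, 1137, 494, 1373 and 1389 normalized CPM. The 24 h libraries lay above all others, and the 72 h libraries overlapped with spleen. The log2 fold change was 2.54 (SE 0.34; edgeR, adjusted p = 6.56e-05) from spleen to 24 h and -1.89 (SE 0.28; edgeR, adjusted p = 0.00133) from 24 h to 72 h, and 0.65 (SE 0.31; edgeR, adjusted p = 0.277) from spleen to 72 h. For each Il1rap read there were 19.7 to 28.4 reads of Gm20319 in spleen, 70.1 to 101 at 24 h and 24.6 to 65.9 at 72 h. The calls of both neighbours held in 21 of 21 alternative settings.

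**Figure D3:**
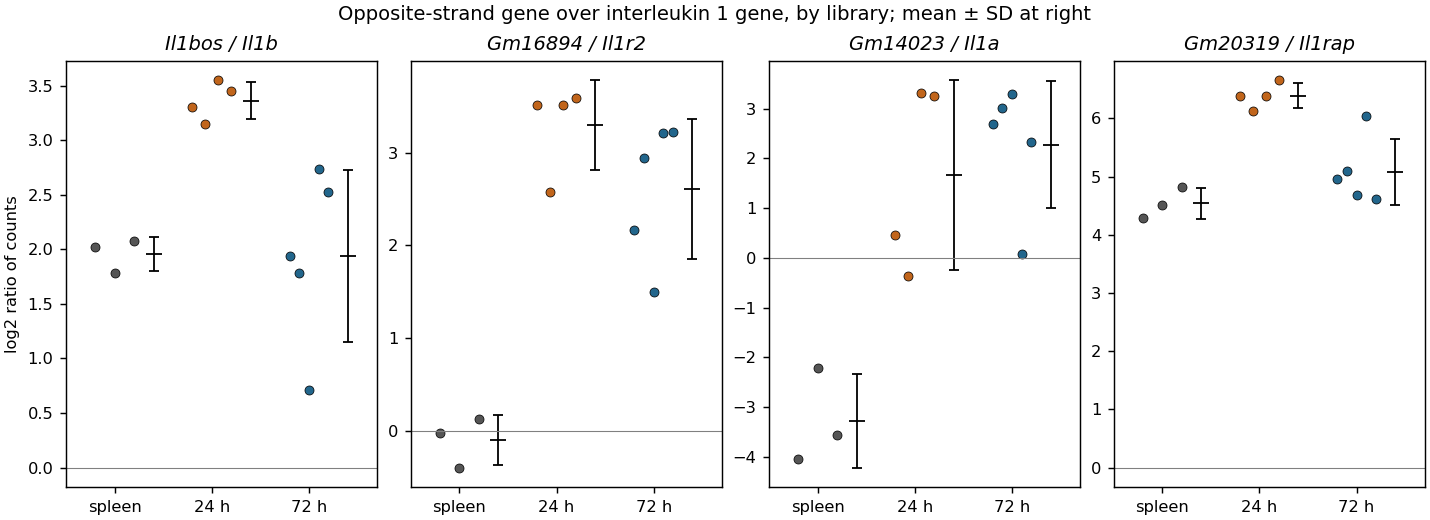
Log2 ratio of reads of the opposite-strand gene to reads of the interleukin 1 gene in each library (points), with the group mean and SD at the right; the grey line marks equal reads. The 24 h libraries are highest for Il1bos over Il1b (8.91 to 11.7 reads for each read) and for Gm20319 over Il1rap (70.1 to 101).

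Counted over the genes fitted, 3 of 9 passed the limits at 24 h (Il1rn, Il1bos and Gm16894, all higher), where 9.75% of all 12488 genes passed, 5.35% as higher and 4.4% as lower. At 72 h, 4 of 9 passed against spleen (Il1b, Il1rn, Il1bos and Gm16894, all higher), where 5.33% of all genes passed, 2.63% as higher and 2.71% as lower. Between the times 1 of 9 passed (Il1b, higher at 72 h), where 4.49% of all genes passed, 1.65% as higher and 2.84% as lower. Of all genes that passed between the times, 36.7% were higher at 72 h, and 25.6% with upper-quartile scaling. Leaving out 1 library changed the count of the 9 genes between the times to 3 (spleen replicate 3, which adds Gm16894 and Nlrp3) or 2 (24 h replicate 4 or 72 h replicate 2 or 4). Of the 12205 to 12356 genes tested in these fits, 796, 390, 371 and 560 passed, in the order named. The 9 genes had been chosen from these contrasts, so nothing is read from the counts. The groups did not overlap for 4 of 9 genes at 24 h (22.8% of all genes), 5 of 9 at 72 h (12% of all genes) and 1 of 9 between the times (9.51% of all genes). The median log2 fold change of the 9 genes was 1.15, 1.26 and 0.11, beside -0.23, -0.02 and 0.18 over all genes. Both comparisons with spleen use the same 3 spleen libraries.

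**Figure D4:**
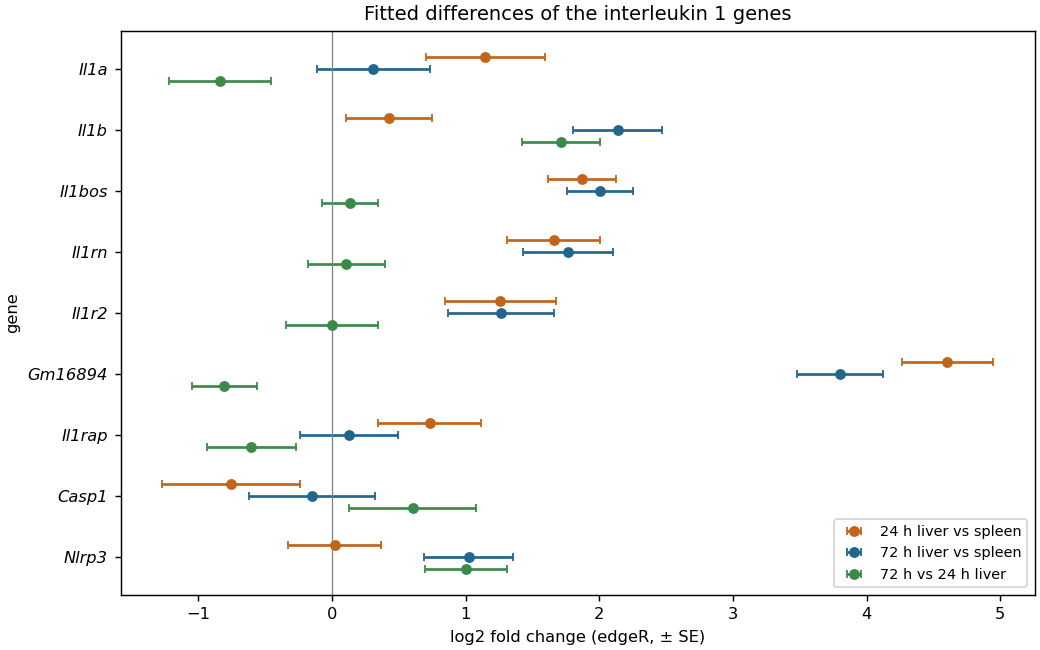
Fitted log2 fold changes of 9 interleukin 1 genes (points) with their SE (bars) in the 3 comparisons, positive where the first-named group is higher. Gm16894 lies farthest from 0 in both comparisons with spleen (4.60 and 3.80), and Il1b is near 0 at 24 h (0.43) and at 2.14 at 72 h.

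Levels of different genes were set side by side per kb of exon. In spleen Il1bos was the highest, at 200 ± 9.51 (SD, n = 3) normalized CPM per kb, followed by Il1b at 80.9 ± 11.4, Gm16894 at 34.7 ± 6.22 and Il1r2 at 16.2 ± 0.555. Below them Il1a, Il1rn, Nlrp3 and Casp1 had means of 5.50 to 6.85 normalized CPM per kb and overlapped in range, and Il1rap was at 2.54 ± 0.164. At 24 h Gm16894 (846 ± 171, n = 4) and Il1bos (734 ± 277) led and overlapped, ahead of Il1b at 109 ± 31.9 normalized CPM per kb. At 72 h Il1bos (805 ± 97.0, n = 5), Gm16894 (483 ± 208) and Il1b (356 ± 183) followed each other, with each neighbour overlapping the next.

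The wider interleukin 1 pathway was read from a list of 52 other genes, of which 39 were tested. The list was drawn up with earlier results of these data known, so its counts and p-values are not independent evidence. It held 6 genes that passed at 24 h against spleen (5 higher and 1 lower), 5 at 72 h (all higher) and 4 between the times (all higher at 72 h). The background was 9.75%, 5.33% and 4.49% of all genes, and the share of tested list genes was 15.4%, 12.8% and 10.3%. Without spleen replicate 2 the counts of list genes against spleen were 3 and 2. Of all genes, 611 and 314 of 12218 passed there, against 1218 and 666 of 12488 with all libraries. Between the times 1 list gene was left without 24 h replicate 3 or 72 h replicate 1 or 3, and 2 without 24 h replicate 2 or 72 h replicate 2. Of all genes, 449, 309, 244, 252 and 371 passed in these fits in the order named, against 561 with all libraries. These fits tested 12267 to 12342 genes. The median log2 fold change of the list was 0.02, 0.27 and 0.16, against -0.23, -0.02 and 0.18 over all genes, and it was 0.02, 0.24 and 0.13 with Cxcl1 at the lower end of its interval and without Il36rn. The p-values measure the spread between these libraries, and the labels do not say whether replicates came from separate mice.

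Genes listed as feedback and target genes of the pathway made up most of the calls against spleen. At both times 4 of 5 tested passed, Cxcl1 with the limit given below among them, and between the times 1 of 5. Il6, also listed there, had no read in any library and was not tested. Whether interleukin 1 induced any of these genes was not tested. Ptgs2, which encodes the prostaglandin synthase COX-2, was at 5.57, 2.17 and 3.86 normalized CPM in spleen. Its levels were 46.0, 37.2, 96.2 and 149 normalized CPM at 24 h and at 259, 505, 739, 158 and 195 at 72 h. No groups overlapped, and the log2 fold change was 4.41 (SE 0.61; edgeR, adjusted p = 8e-05) at 24 h, 6.59 (SE 0.64; edgeR, adjusted p = 1.17e-06) at 72 h and 2.19 (SE 0.43; edgeR, adjusted p = 0.00718) between the times. Without replicates 2 and 3 of 72 h together the last of these calls was lost.

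Tnfaip3, which encodes the NF-kB inhibitor A20, rose against spleen by 3.17 (SE 0.69; edgeR, adjusted p = 0.00464) at 24 h and 3.14 (SE 0.67; edgeR, adjusted p = 0.00482) at 72 h on the log2 scale. Its 72 h libraries ranged from 4.17 to 47.4 normalized CPM and overlapped with spleen, and that call was lost with limma-voom, without replicates 2 and 3 of 72 h together and without spleen replicate 2 (edgeR, adjusted p = 0.0506). Nfkbiz, which encodes IkB-zeta, a nuclear partner of NF-kB, rose by 1.03 (SE 0.31; edgeR, adjusted p = 0.0374) at 24 h and 1.61 (SE 0.30; edgeR, adjusted p = 0.0016) at 72 h. Its 24 h call was lost in 9 of 21 alternative settings, 5 of them by leaving out 1 library (spleen replicate 1 or 2, or 24 h replicate 1, 2 or 4), with an adjusted p of up to 0.164 by edgeR.

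Cxcl1, which encodes a chemokine for neutrophils, had 2, 0 and 1 reads in spleen, 11, 10, 15 and 28 at 24 h and 8, 68, 92, 0 and 9 at 72 h. Over summed reads the ratio to spleen was 28.4 (95% exact interval 9.28 to 141) at 24 h and 43.2 (14.6 to 212) at 72 h, for counting error only. Cxcl1 passed the filter on low counts through its liver libraries, so its calls (edgeR, adjusted p = 0.0105 and 0.00707) and its place among the 5 tested depend on the groups where it was high. They were lost with limma-voom and without spleen replicate 2 (edgeR, adjusted p of up to 0.0603), that of 72 h also without replicates 2 and 3 of 72 h together.

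Among receptors and adaptors, Il18r1, the ligand-binding chain of the interleukin 18 receptor in the same chromosome 1 cluster as Il1r2, was at 65.4, 70.7 and 122 normalized CPM in spleen. It was at 254, 322, 166 and 252 normalized CPM at 24 h, above all spleen libraries, and it rose by 1.53 (SE 0.31; edgeR, adjusted p = 0.00281). Traf6, the ubiquitin ligase downstream of MyD88, fell by 1.52 on the log2 scale at 24 h (SE 0.45; edgeR, adjusted p = 0.0337). It was at 18.6, 27.9 and 21.2 normalized CPM in spleen and at 6.31, 1.80, 10.6 and 13.1 at 24 h, with 3 to 18 reads in the latter. That call was lost without spleen replicate 1 or 2 or 24 h replicate 1 or 2 (edgeR, adjusted p of up to 0.138), and with only the 2 groups in the fit (edgeR, adjusted p = 0.0654). The other 12 adaptors and kinases tested did not pass in any comparison.

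Inflammasome and processing genes made up the remaining calls. Ninj1, which encodes a membrane protein that ruptures the plasma membrane in lytic cell death, rose by 2.07 (SE 0.46; edgeR, adjusted p = 0.00674) at 72 h against spleen. Its 72 h libraries ranged from 19.5 to 97.1 normalized CPM and overlapped with spleen, and the call was lost without replicates 2 and 3 of 72 h together and without spleen replicate 1 or 2 (edgeR, adjusted p of up to 0.0657). Between the times, Gsdmd, which encodes the pore-forming target of caspase 1, rose by 1.49 (SE 0.35; edgeR, adjusted p = 0.0196), from 10.8 ± 4.10 (SD, n = 4) to 30.4 ± 10.5 (n = 5) normalized CPM. Txnip, which encodes a thioredoxin-binding protein known to interact with NLRP3, rose by 0.86 (SE 0.20; edgeR, adjusted p = 0.0194), from 102 ± 18.6 to 185 ± 27.3 normalized CPM. Its exons share 606 bases with Gm15441 on the opposite strand, and the other 9 pathway genes called share none. Aim2, a sensor of cytosolic DNA, rose by 1.83 (SE 0.48; edgeR, adjusted p = 0.0338), from 4.78 ± 2.50 to 16.8 ± 9.31 normalized CPM, with overlapping groups.

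Of the 4 calls between the times, that of Ptgs2 held whichever single library was left out (edgeR, adjusted p of up to 0.0421). Those of Gsdmd and Txnip were lost without 24 h replicate 3 or 72 h replicate 1 or 3, that of Gsdmd also without 24 h replicate 1 or 72 h replicate 2, and that of Txnip also without 24 h replicate 2 (edgeR, adjusted p of up to 0.0705). That of Aim2 was lost without 24 h replicate 2, 3 or 4 or 72 h replicate 1, 2 or 3 (edgeR, adjusted p of up to 0.107). None of the 4 calls held without replicates 2 and 3 of 72 h together. There 0 of the list passed with edgeR and 11 had an unadjusted p under 0.05. Calls were fewer among all genes as well, with 197 of 12057 passing there against 561 of 12488 with all libraries. With all libraries, DESeq2 called 4 of the list and limma-voom 3, where 986 and 560 of all 12488 genes passed.

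**Figure D5:**
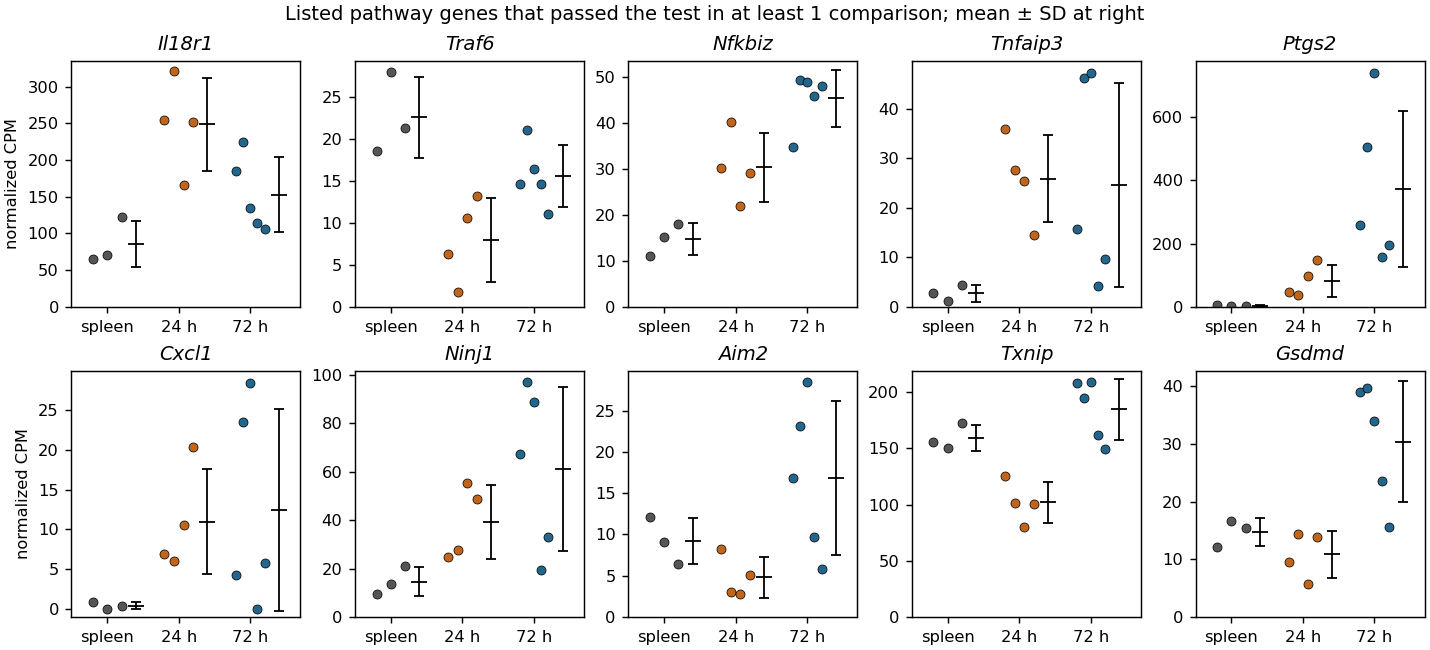
Normalized CPM of the 10 listed pathway genes that passed in at least 1 comparison, in each library (points), with the group mean and SD at the right; each panel has its own linear axis. Ptgs2 does not overlap between any groups, and the 24 h libraries of Traf6 (1.80 to 13.1) lie below those of spleen.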

How the data were processed

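RNA was extracted from sorted neutrophils, made into stranded, poly(A)-selected libraries and sequenced as paired reads by the authors. Per the labels, reads were aligned to GRCm38 with STAR (version 2.7.9a), and the authors deposited HTSeq read counts per gene, not normalized, for 12 libraries in a single table. The annotation release and strand setting of the counting are not given in the sources used here. The 5 summary rows (unaligned, no feature and the like) were kept out of library sizes and tests. Columns were matched to samples by their labels, and no column was left over.

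Genes over 1 CPM in at least 3 libraries (12488 of 48709) were scaled by TMM and fitted once over all 12 libraries with the edgeR quasi-likelihood test (edgeR 4.0.16, R 4.3.3), with Benjamini-Hochberg adjustment over all genes tested. Calls needed an adjusted p under 0.05 together with a log2 fold change of 0.5 or more in either direction. The TMM factors did not overlap between groups. They were 1.17 to 1.24 in spleen, 0.740 to 0.860 at 24 h and 1.03 to 1.14 at 72 h, and small differences depend on them. SE is the fold change divided by the square root of F. The fit was tested on simulated data. DESeq2 (1.42.0) and limma-voom (limma 3.58.1), the test of the study, were alternatives. Of the gene IDs, 48349 matched a symbol. Exons, overlaps and lengths came from GENCODE M21 (merged exons), and promoters from RefSeq (GRCm38.p6). Ratios of reads used counts per gene, with 0.5 added to both on the log2 scale.

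The members, the pathway list and the alternatives were chosen with earlier results of these data known. Genes named were all members, the listed pathway genes called in at least 1 comparison, the opposite-strand genes sharing exon bases with a member, and the 3 genes most like each of 4 members, of which 1 is not reported here. Il36rn, left out of a median, was named after its values were seen. Il6 is named as an untested list gene and Gm15441 as a neighbour of a called one, and marker genes are named for checks. Protein sequences were not analysed here. Totals of 1267089 to 3017403 reads on genes put 3 reads at 0.929 to 2.19 normalized CPM, and intervals and such limits cover counting error only.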

Additional observations from a re-analysis of the deposited data

Results flagged for a closer look

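Gm16894 stood out in replicate 1 of 24 h (926 normalized CPM, against 617 to 670 in the other libraries) and in replicate 2 of 72 h (711, against 293 to 404). The log2 ratio of Gm16894 to Il1r2 was lowest in replicate 2 of 24 h, at 2.58 against 3.51 to 3.59. Each of these 3 libraries lay farther from its nearest neighbour than Dixon's test allows at 95%. In all 22 such tests were run, and chance flags about 1 in 20.

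The response relative to spleen differed between the times for Il1b by 1.71 on the log2 scale, for Ptgs2 by 2.19, for Aim2 by 1.83, for Gsdmd by 1.49 and for Txnip by 0.86, each higher at 72 h. The 3 spleen libraries cancel from these differences, and that of Il1b is a description, since the gene was chosen with it known.

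In reads outside the gene counts, replicate 4 of 24 h had 0.227% of unique reads on more than 1 gene, against 0.0197 to 0.0368% elsewhere, and replicates 2 and 3 of 72 h had 7.66% and 8.21% of reads aligned to several places, against 0.943 to 1.41% elsewhere.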

How the results depend on the processing

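No called pathway gene reversed its direction under any of the 21 alternative fits, though several calls were lost, as given above. The genes were picked for passing with all libraries and the fits share most libraries, so a kept direction is no independent evidence. The members were chosen from these contrasts, so their counts over the fits are a description. Leaving out each library in turn gave 3 to 4 members called at 24 h, 4 to 6 at 72 h and 1 to 3 between the times. Pathway genes called numbered 3 to 7, 2 to 6 and 1 to 4. Of the 12140 to 12415 genes tested in these fits, 575 to 1320, 314 to 835 and 182 to 796 passed. Between the times, DESeq2 size factors, upper-quartile scaling, filterByExpr and limma-voom each called 2 members, as did leaving out replicates 2 and 3 of 72 h together, and no filter and the DESeq2 test called 3; the added genes were Gm16894 (lower) and Nlrp3 (higher). Of all genes, 597, 614, 671, 560 and 197 passed with the settings that called 2 members, in the order named. With no filter and the DESeq2 test 823 and 986 did. The genes tested were 7828 with filterByExpr, 20019 with no filter, 12057 without those replicates and 12488 otherwise. Pathway genes called at 72 h numbered 3 with limma-voom and 2 without those replicates, where 759 and 287 of all genes passed. Between the times 0 pathway genes passed without them. The cause of these differences was not tested. Per kb of exon, the mean log2 ratio of Il1bos to Il1b was 1.32 in spleen and 2.72 at 24 h, and that of Gm16894 to Il1r2 was 1.08, 4.48 and 3.79 in spleen, 24 h and 72 h, as the exon lengths differ. Leaving out 1 library gave log2 ratios of Il1bos to Il1b of 1.90 to 2.05 in spleen, 3.30 to 3.43 at 24 h and 1.74 to 2.25 at 72 h, and of Gm16894 to Il1r2 of -0.21 to 0.05, 3.20 to 3.54 and 2.46 to 2.88.

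The replicate block called 4, 5 and 1 members and 6, 6 and 4 pathway genes at 24 h, 72 h and between the times. Of all 12488 genes, it called 1302, 874 and 599. Same-numbered libraries had deviations correlated at -0.116 to 0.13 (1 of 10 pairs over 0.1), so the numbers were not taken as pairing.

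Il1r1 had a single read, and the reads of Casp1 and the spleen reads of Cxcl1 and Gm14023 were few, which limits what their values show.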

Other observations

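The genes whose levels ran most alike with 4 of the members over the 12 libraries (Pearson's r of log2 CPM, given without a test because the libraries share groups) were not in the pathway list. For Il1b they were Tnfaip2 (r = 0.945), 9130213A22Rik (0.94) and Spdya (0.934), the highest of all genes tested. The means of 9130213A22Rik were 0.121, 0.724 and 3.22 normalized CPM in spleen, 24 h and 72 h, and those of Spdya 0.335, 2.82 and 11.5. Both were below the level of 3 reads in spleen, and 9130213A22Rik also at 24 h, which limits what their r shows. Tnfaip2, a gene named for its induction by tumour necrosis factor, was at means of 95.8, 112 and 204 normalized CPM in spleen, 24 h and 72 h, and its r was 0.886 for deviations from the group means. For Il1rn they included Mllt6 (0.984) and Mast1 (0.974). Mllt6 was at 0.825, 27.1 and 25.5 normalized CPM, below the level of 3 reads in spleen. Within groups the r of Mllt6 and Il1rn was 0.977.

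For Il1bos they were Tctex1d4 (0.955), Best1 (0.933) and Gm45244 (0.93), and for Gm16894 E230029C05Rik (0.97), Tmem189 (0.966) and Gm26885 (0.963). With these genes the r of deviations from group means was lower, 0.516 to 0.605 for Il1bos and 0.479 to 0.605 for Gm16894. Tctex1d4 was at means of 24.7, 504 and 543 normalized CPM, and Tmem189 at 2388, 17400 and 13830.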
